A study of Mus musculus with 6 samples.

Results

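The transcripts of ATF4, of its relatives and of stress genes placed downstream of it were followed in mouse embryonic fibroblasts that carry a mutant superoxide dismutase. The 10 genes Atf4, Atf5, Atf3, Ddit3, Cebpg, Trib3, Nupr1, Sesn2, Chac1 and Gdf15 were picked by name and function. Earlier results of these data were known at that point. All 10 were found among the 50763 genes of the count table. The 3 K68R libraries came from SOD2K68R mice, whose CRISPR mutation of the mitochondrial manganese superoxide dismutase, from lysine to arginine, is described as mimicking the non-acetylated enzyme. The 3 WT libraries came from SOD2WT mice. All cells were isolated on day E13.5 from mice labelled C57BL/6J, were grown for a short time, and have no treatment in the labels. The labels call the 3 libraries of each genotype biological replicates. They give neither the zygosity of the K68R embryos nor the number of embryos or cultures behind the libraries, so p-values measure the spread between these libraries only, and that spread may be technical. Embryonic fibroblasts are a mixed mesenchymal culture from the body of the embryo.

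The integrated stress response is a shared arm of several stress pathways. Kinases that sense unfolded protein, lack of amino acids, viral RNA or mitochondrial and haem stress phosphorylate the initiation factor eIF2, which lowers general protein synthesis while ATF4 protein is made more efficiently. ATF4 then pairs with other basic leucine zipper (bZIP) proteins and induces genes of amino acid supply, redox balance and, with CHOP, cell death. Much of this control lies in translation, so levels of messenger RNA do not report the amount or the activity of ATF4 protein.

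ATF4 and its C/EBP partners are known to bind a composite site with the core TGATGNAA, and this core was searched on both strands of the RefSeq promoter windows of build GRCm38.p6, which run from 250 bases before to 50 after a start. It stood in 4 of the 12 windows of the 10 genes, 1 each for Atf3, Chac1, Nupr1 and Trib3, and in 3.97% of all 32851 windows. The palindromic cAMP response element TGACGTCA was in 0 of the 12 windows and in 1.79% of all windows. The 3 genes with the core before the start are printed. They share the letters TTGCATCA, which is the core read on the other strand. Their levels did not move alike between the genotypes. The stretches of 120 bases, 5′ to 3′ on the strand of the gene, are chr1:191183380-191183499 (minus strand) for Atf3, chr2:119350993-119351112 (plus strand) for Chac1 and chr7:126625517-126625636 (minus strand) for Nupr1, with the core in capitals.
Atf3: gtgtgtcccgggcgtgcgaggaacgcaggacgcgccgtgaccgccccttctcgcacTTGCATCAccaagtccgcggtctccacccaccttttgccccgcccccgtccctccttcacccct
Chac1: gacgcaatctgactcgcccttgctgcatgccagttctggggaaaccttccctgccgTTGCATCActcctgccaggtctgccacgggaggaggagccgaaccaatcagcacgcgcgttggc
Nupr1: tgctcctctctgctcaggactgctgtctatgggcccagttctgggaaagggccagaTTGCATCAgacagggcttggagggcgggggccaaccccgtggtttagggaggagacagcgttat
The site began 110 bases before the start in Atf3 and in Nupr1 and 193 bases before it in Chac1. In Trib3 the match, TTACATCA, lay 14 bases after the start. No binding was measured here, and a match is only a run of letters.

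Library totals ran from 26200088 to 31738219 read pairs in K68R and from 30856781 to 40691447 in WT, and a count of 3 was worth 0.0728 to 0.116 counts per 1 M read pairs (CPM, with library sizes scaled by TMM). Sod2 was at 48.9, 45.6 and 47.2 CPM in the K68R libraries and at 71.8, 68.9 and 69.2 CPM in the WT libraries, 1.49-fold lower (log2 fold change -0.57, adjusted p = 2.96e-23, edgeR), and the counts do not show the altered codon. The Sod2 log2 fold change was -0.45 with offsets for length and GC content and -0.13 among short genes of low GC alone, and against a bound of 1.5-fold it was not called (adjusted p = 0.692, edgeR). The names of the WT libraries carry a letter that the labels do not explain, and any difference in handling cannot be told apart from the genotype. Differences between the genotypes were very broad: 81.4% of the 16730 genes tested passed an adjusted p under 0.05 (edgeR, Benjamini-Hochberg), 40.8% as higher and 40.5% as lower in K68R. The values of the genotypes did not overlap for 82.3% of genes. Exonic length and GC content accounted for 39.1% of the variance of log2 fold changes across 15676 genes, which are not independent replicates. A second log2 fold change, from a fit with offsets for length and GC content in each library, therefore stands beside the first. None of the 12 fibroblast markers was at 0, and 5 were higher and 6 lower, with summed levels of 11363 to 11461 CPM in K68R and 7854 to 7948 CPM in WT. The collagens Col1a1 (2445 against 165 CPM) and Col1a2 (2408 against 611 CPM) carried that difference, while Pdgfra was lower (65.3 against 363 CPM). Marker calls and sums here are from the counts as deposited. With the offsets the log2 fold change of Col1a1 went from 3.89 to 1.76 and that of Pdgfrb from 0.29 to -1.16. Col1a2 then had 2.10 and Pdgfra -3.00, and Vim passed the test as higher at 0.37. Summed markers of other cell types were higher in K68R for skeletal muscle (220.0 to 222 against 70.2 to 73.5 CPM, 6 of 6 higher), cartilage (158 to 164 against 9.67 to 10.4 CPM, 3 of 4 higher, mostly Col2a1 at 134 against 0.588 CPM), endothelium (96.1 to 97.9 against 24.7 to 27.2 CPM, 2 of 5 higher, nearly all of it Kdr at 90.7 against 20.4 CPM, while Pecam1, Cdh5 and Tek were not called) and neural cells (40.2 to 42.9 against 24.3 to 25.9 CPM, 2 of 4 higher, mostly the tubulin Tubb3 at 38.2 against 21.2 CPM, with Sox2 lower at 1.64 against 3.56 CPM and Elavl3 at 0 in WT). They were lower in K68R for adipocytes (3.76 to 4.89 against 71.7 to 79.5 CPM, 4 of 5 lower, mostly Fabp4 at 4.28 against 56.4 CPM, with Plin1 and Lep at 0 in K68R) and epithelium (18.4 to 20.4 against 42.3 to 43.5 CPM, 5 of 5 lower). Macrophage markers summed to 143 to 149 CPM in K68R and 151 to 154 CPM in WT, with 3 of 8 higher and 2 lower. Under the offsets Cd68 and Lyz2 turned higher (log2 fold changes 0.32 and 0.31) and Csf1r lower (-0.21). Col2a1 had 5.21 in that fit, against 7.83 without offsets, and Acan and Sox10 lost their calls. Hepatocyte markers summed to 0.116 to 0.13 against 0.8004 to 1.46 CPM. Erythroid markers summed to 0.288 to 0.486 against 0.655 to 0.927 CPM, with Hba-a1 at 0 in K68R. Of these, 2 of 3 hepatocyte and 3 of 4 erythroid markers were too low to test. Afp was lower, Alas2 was not called, and the K68R hepatocyte sums lay near the worth of 3 counts. The part of these cell types in the results was not tested, and in bulk cultures fewer cells of a type and less RNA per cell cannot be told apart.

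Of the 10 stress response genes, 6 fell in K68R (Atf4, Atf5, Cebpg, Trib3, Nupr1 and Chac1), 3 rose (Sesn2, Atf3 and Ddit3) and Gdf15 was not called. The call of Ddit3 was narrow and held in 7 of 16 alternatives. The 9 calls stand beside a background of 81.4% of all genes. In all 10 genes the values of the genotypes did not overlap, against 82.3% of all genes. Among the 10, Sesn2 alone rose by 2-fold or more and Atf4 alone fell by as much, against 22.1% and 7.57% of all genes in these directions. After the length and GC offsets Sesn2 was 2.14-fold higher, Atf4 was only 1.87-fold lower, and Atf5 (2.26-fold) and Trib3 (2.08-fold) were the genes that fell past 2-fold. Tested against a bound of 1.5-fold, 1 gene was higher (Sesn2) and 3 were lower (Atf4, Cebpg and Chac1), beside 26.1% and 14.9% of all genes. The median log2 fold change was -0.41 over the 10 genes and -0.01 over all genes tested. Once length and GC offsets were applied, the median over the 10 was -0.40, with 4 genes higher and 6 lower, against 37.7% and 38.1% of all genes in that fit, and Nupr1 and Gdf15 had changed sides.

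**Figure D1:**
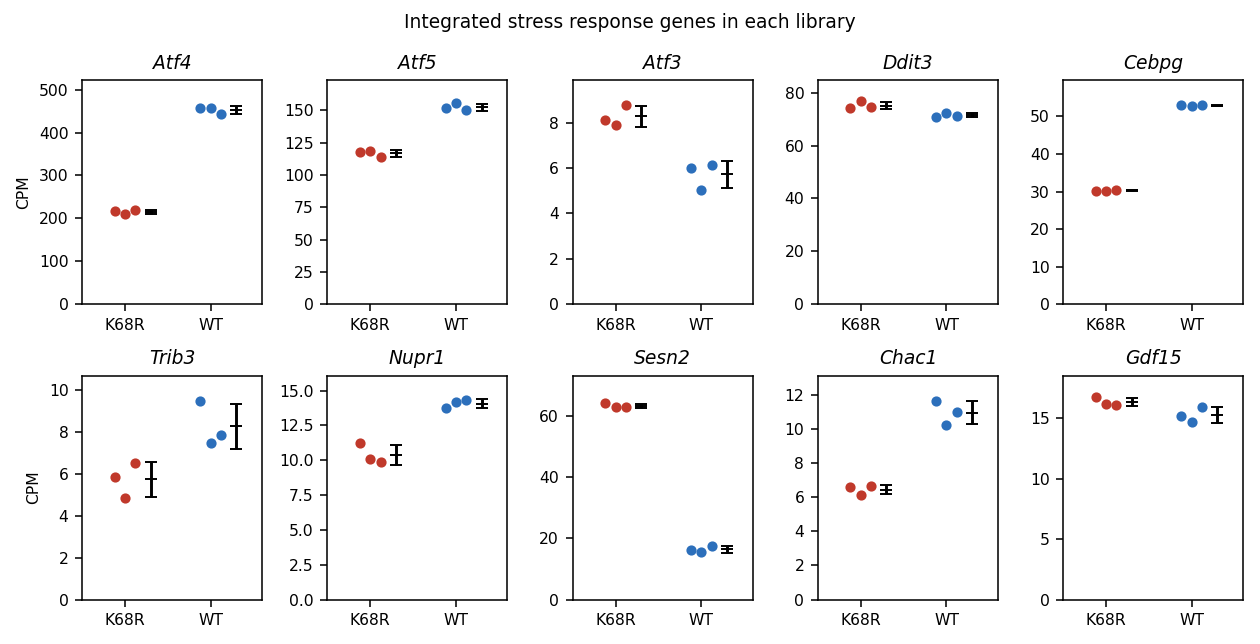
Each panel shows 1 gene, with its level in CPM from 0 upwards, 1 point for each of the 3 K68R libraries on the left and the 3 WT libraries on the right, and bars for the mean ± SD. Atf4 lies near 215 CPM in K68R and 453 CPM in WT, Sesn2 near 63.4 and 16.4 CPM, and Ddit3 is nearly level.

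Atf4, the transcription factor at the centre of the response, was at 216, 209.5 and 219.7 CPM in the K68R libraries and at 458, 458 and 442 CPM in the WT libraries. Every K68R library lay far below every WT library. The mean was 215 ± 5.19 CPM over K68R and 453 ± 9.08 CPM over WT libraries (SD, n = 3 each), 2.1-fold lower in K68R. The log2 fold change was -1.07 with a standard error of 0.0215 (adjusted p = 2.52e-52, edgeR, Benjamini-Hochberg), and -0.90 once offsets were applied. The gene lies on chromosome 15 from 80139385 to 80141746 on the plus strand (build mm39) and shares no exonic base with another annotated gene.

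Among all other genes tested, the 3 whose log2 CPM lay nearest to that of Atf4 over the 6 libraries, by Euclidean distance, were Rpl34, Ranbp1 and Anp32b. Rpl34, a ribosomal protein of the large subunit, averaged 226 ± 0.736 CPM over K68R and 438 ± 11.3 CPM over WT libraries (distance 0.154). Ranbp1, a cofactor of nuclear transport, averaged 225 ± 3.14 CPM over K68R and 435 ± 2.36 CPM over WT libraries (distance 0.156). Anp32b, a histone chaperone, lay at a distance of 0.223. This likeness was measured on level and difference over 6 libraries in 2 groups. With offsets the 3 log2 fold changes were -0.42, -0.33 and -0.67, each smaller in size than that of Atf4. Rpl34 has near-identical copies in the genome, so its count is uncertain.

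Atf5, a relative of ATF4 that is also controlled in translation and is linked to the mitochondrial unfolded protein response, was at 118, 118 and 114 CPM in the K68R libraries and at 152, 155 and 150.0 CPM in the WT libraries. The groups did not overlap, and K68R was the lower. Atf5 was 1.31-fold lower in K68R, with a log2 fold change of -0.39 (standard error 0.0261, adjusted p = 5.75e-22, edgeR). Under the offsets this log2 fold change was -1.18, a larger decrease, for a transcript of 1993 exonic bases with 61.3% GC. Nup62 and Il4i1b on the opposite strand share 4.11% of its exonic bases, which lie on chromosome 7 from 44461680 to 44466082 on the minus strand (build mm39), and reads were counted without regard to strand.

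Atf3, a stress induced factor that can act as a repressor, was at 8.14, 7.92 and 8.78 CPM in the K68R libraries and at 5.99, 5.05 and 6.15 CPM in the WT libraries. All K68R values lay above all WT values, at a low level in each genotype. Atf3 was 1.44-fold higher in K68R, with a log2 fold change of 0.53 (standard error 0.0995, adjusted p = 2.62e-06, edgeR) and of 0.89 after the offsets. It thus went the opposite way to Atf4. The gene lies on chromosome 1 from 190902493 to 190915530 on the minus strand (build mm39).

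Ddit3 encodes CHOP, the factor that joins ATF4 in the death-promoting branch of the response. It was at 74.1, 76.7 and 74.6 CPM in the K68R libraries and at 70.8, 72.2 and 71.2 CPM in the WT libraries. The groups lay close together without overlap. The difference was 1.05-fold, a log2 fold change of 0.08 with a standard error of 0.0325 that passed the threshold narrowly (adjusted p = 0.0295, edgeR). Without K68R replicate 2 the call was lost (adjusted p = 0.126, edgeR), and so it was without WT replicate 1, 2 or 3 (adjusted p = 0.143, 0.109 and 0.154). It was also lost with no filter on low counts (adjusted p = 0.409, edgeR), with DESeq2 (adjusted p = 0.052), at a threshold of 0.01 and against a 1.5-fold bound. The adjusted p over all 16 alternatives ran from 1.66e-11 to 1 (edgeR, limma or DESeq2), and the call as higher held in 7 of them. The log2 fold change was -0.04 after upper quartile normalization and 0.27 after the length and GC offsets. Mars1 and Mbd6 on the opposite strand share 5.82% of the exonic bases of Ddit3, which lies on chromosome 10 from 127126662 to 127132160 on the plus strand (build mm39).

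Cebpg, a C/EBP protein without an activation domain of its own that pairs with ATF4, was at 30.3, 30.2 and 30.5 CPM in the K68R libraries and at 53, 52.7 and 53 CPM in the WT libraries. The libraries of each genotype lay almost on top of each other and the groups well apart. Cebpg was 1.74-fold lower in K68R, with a log2 fold change of -0.80 (standard error 0.0411, adjusted p = 3.03e-28, edgeR) and of -0.52 after the offsets. At 4702 exonic bases it is the longest of the 10 transcripts, and at 45.2% GC the lowest in GC. An annotated gene on the opposite strand shares 4.1% of its exonic bases, on chromosome 7 from 34745847 to 34755991 on the minus strand (build mm39).

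Trib3, a pseudokinase induced by ATF4 and CHOP that feeds back on them, was at 5.85, 4.84 and 6.48 CPM in the K68R libraries and at 9.46, 7.45 and 7.85 CPM in the WT libraries. The groups did not overlap, though WT replicate 1 stood above the other WT libraries. Trib3 was 1.45-fold lower in K68R, with a log2 fold change of -0.54 (standard error 0.105, adjusted p = 5.38e-06, edgeR) and of -1.06 after the offsets. Nupr1, a small stress induced chromatin protein, was at 11.2, 10.1 and 9.89 CPM in the K68R libraries and at 13.7, 14.2 and 14.3 CPM in the WT libraries. Every K68R library lay below every WT library. Nupr1 was 1.36-fold lower in K68R, with a log2 fold change of -0.44 (standard error 0.0746, adjusted p = 2.53e-07, edgeR). Under the offsets the direction turned, to 0.23 (adjusted p = 0.00569, edgeR), and at 626 exonic bases it is the shortest of the 10. In build mm39 Trib3 lies on chromosome 2 from 152179345 to 152185980 on the minus strand and Nupr1 on chromosome 7 from 126222418 to 126224642 on the minus strand, and neither shares an exonic base with another gene.

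Sesn2, a sestrin that restrains mTORC1 and is a target of ATF4, NRF2 and p53, was at 64.1, 63.1 and 62.9 CPM in the K68R libraries and at 16.2, 15.4 and 17.7 CPM in the WT libraries. In the counts as deposited, no other gene of the 10 separated the genotypes by so large a fold. The mean was 63.4 ± 0.621 CPM over K68R and 16.4 ± 1.13 CPM over WT libraries (SD, n = 3 each), 3.85-fold higher in K68R. Its log2 fold change was 1.95 with a standard error of 0.0461 (adjusted p = 7.81e-48, edgeR). After the offsets it was 1.1, or 2.14-fold, and Atf5 then differed by more, at 2.26-fold lower. The transcript has 2658 exonic bases and 58.7% GC, and it lies on chromosome 4 from 132220115 to 132237767 on the minus strand (build mm39) with no exonic base shared.

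Chac1, the cytosolic enzyme that breaks down glutathione and is a target of ATF4, was at 6.59, 6.12 and 6.64 CPM in the K68R libraries and at 11.6, 10.3 and 11 CPM in the WT libraries. All K68R values lay below all WT values. Chac1 was 1.71-fold lower in K68R, with a log2 fold change of -0.77 (standard error 0.0883, adjusted p = 3.10e-12, edgeR) and of -0.73 after the offsets. Of the 3 genes whose promoter sequences are printed, Chac1 and Nupr1 were thus lower and Atf3 higher in the counts as deposited, and under the offsets Chac1 alone was lower.

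Gdf15, a secreted stress hormone of the TGF-beta family, was at 16.7, 16.2 and 16.1 CPM in the K68R libraries and at 15.2, 14.7 and 16 CPM in the WT libraries. The lowest K68R value lay just above the highest WT value. The log2 fold change of 0.10 (standard error 0.0654) did not pass the test (adjusted p = 0.17, edgeR). It was -0.02 after upper quartile normalization and -0.28 under the offsets (adjusted p = 1.00e-04, edgeR). In build mm39 Gdf15 lies on chromosome 8 from 71082043 to 71085106 on the minus strand and Chac1 on chromosome 2 from 119181723 to 119184807 on the plus strand.

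**Figure D2:**
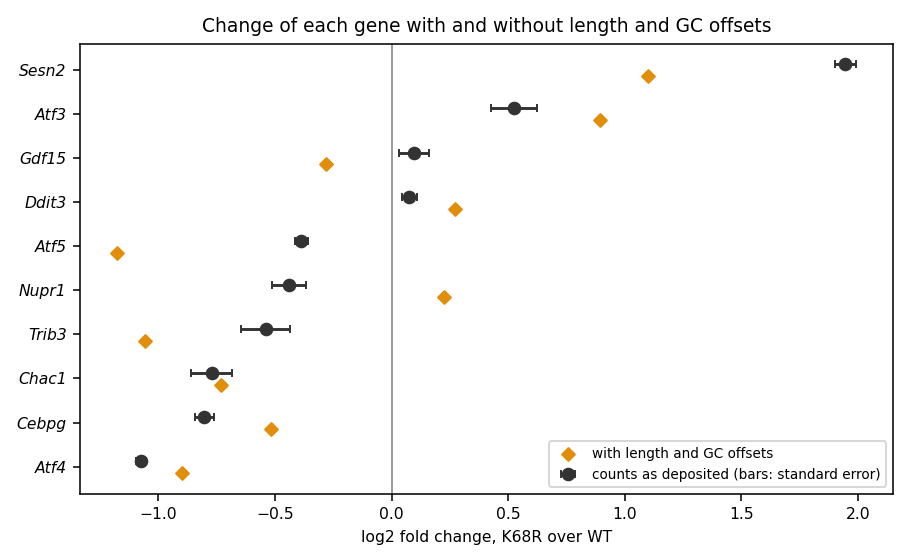
Log2 fold changes of K68R over WT for the 10 genes, as circles with standard errors for the counts as deposited and as diamonds for the fit with length and GC offsets. Sesn2 stays highest and Nupr1 and Gdf15 change sides of 0, while Atf4, Atf5, Cebpg, Trib3 and Chac1 are below 0 in each fit.

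The order of levels among the genes was read per exonic length, as TPM (transcripts per 1 M within a library), which was not used to test between genotypes. TPM had no TMM scaling, and its gaps between genotypes differed from those in CPM. Ddit3 was at 77.2 TPM in K68R and 60.9 TPM in WT, but at 75.1 and 71.4 CPM. In K68R, Atf4 (325 ± 8.6 TPM), Atf5 (153 ± 2.72 TPM), Ddit3 (77.2 ± 1.39 TPM) and Sesn2 (62.3 ± 0.464 TPM) led (SD, n = 3). They were followed by Nupr1 (43.4 ± 2.94 TPM), Gdf15 (30.6 ± 0.565 TPM), Cebpg (16.9 ± 0.142 TPM), Atf3 (10.9 ± 0.632 TPM), Chac1 (10.7 ± 0.493 TPM) and Trib3 (7.29 ± 1.07 TPM). Of these neighbours only Atf3 and Chac1 overlapped. In WT, Atf4 (568 ± 7.35 TPM), Atf5 (166 ± 2.31 TPM), Ddit3 (60.9 ± 0.753 TPM) and Nupr1 (48.7 ± 1.33 TPM) led (SD, n = 3). They were followed by Cebpg (24.4 ± 0.218 TPM), Gdf15 (23.7 ± 1.14 TPM), Chac1 (15.2 ± 0.942 TPM), Sesn2 (13.4 ± 1.01 TPM), Trib3 (8.72 ± 1.09 TPM) and Atf3 (6.28 ± 0.672 TPM). Cebpg and Gdf15 overlapped in WT, and so did Chac1 and Sesn2. Sesn2 held rank 4 in K68R and rank 8 in WT, and Atf3 held rank 8 in K68R and rank 10 in WT. The first 3 ranks were Atf4, Atf5 and Ddit3 in each genotype.

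**Figure D3:**
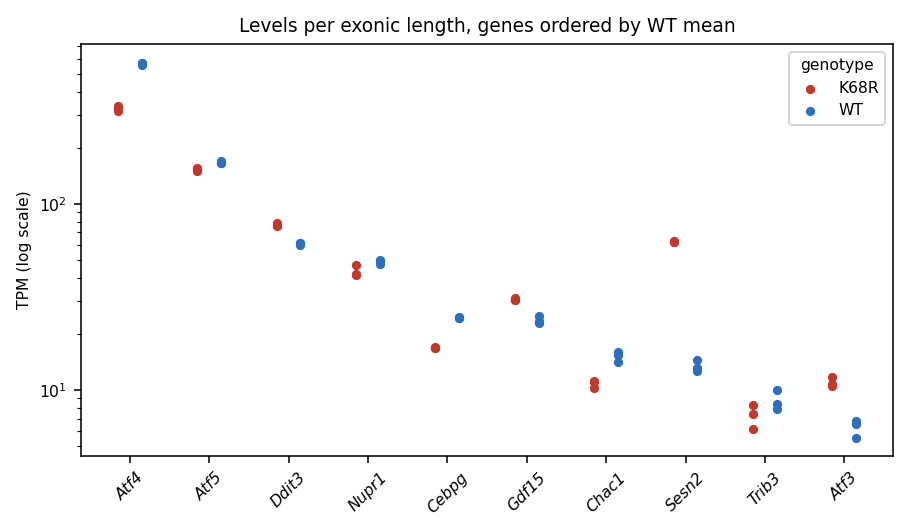
TPM on a log scale for the 10 genes, ordered by their WT mean, with 1 point for each K68R library (left of each position) and each WT library (right). Sesn2 shows the widest gap, near 62.3 TPM in K68R and 13.4 TPM in WT.

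Upstream of ATF4, 7 of 22 tested kinases and regulators of eIF2 rose, 14 fell and 1 was not called, beside 40.8% higher and 40.5% lower over all genes. The median log2 fold change was -0.30, and -0.12 after the offsets. Eif2ak3, which encodes the endoplasmic reticulum kinase PERK, averaged 29.5 ± 1.64 CPM over K68R and 20.4 ± 0.583 CPM over WT libraries, 1.45-fold higher (adjusted p = 3.04e-14, edgeR), but its log2 fold change after the offsets was 0.04 (adjusted p = 0.474, edgeR). Eif2ak4, which encodes the amino acid sensor GCN2, averaged 47.6 ± 1.255 CPM over K68R and 30.7 ± 0.46 CPM over WT libraries, 1.55-fold higher, with log2 fold changes of 0.63 and, under offsets, 0.38. These 2 kinases sense protein folding and amino acid supply. Gcn1, the activator of GCN2, was at 174, 175 and 178 CPM in the K68R libraries and at 12.4, 12.1 and 11.4 CPM in the WT libraries. The groups lay far apart, 14.7-fold in the counts as deposited (adjusted p = 3.84e-71, edgeR), with a log2 fold change of 3.88 that was 1.74 after the offsets. It is a long transcript of 8691 exonic bases. Eif2ak2, the interferon induced kinase PKR, was 1.65-fold lower (log2 fold change -0.72, and -0.54 after offsets), but 33.4% of its exonic bases are shared with other annotated genes. Eif2ak1, which encodes the haem and mitochondrial stress kinase HRI, averaged 51.6 ± 1.29 CPM over K68R and 62.3 ± 1.95 CPM over WT libraries, 1.21-fold lower, a difference that did not pass the test after offsets (log2 fold change -0.04, adjusted p = 0.309, edgeR).

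The substrate subunit Eif2s1 was 1.64-fold and Ppp1ca, a catalytic subunit of protein phosphatase 1, 1.53-fold lower in K68R, with log2 fold changes after the offsets of -0.23 for Eif2s1 and -0.21 for Ppp1ca. Ppp1r15a, which encodes GADD34, the stress induced subunit that directs this phosphatase to eIF2, was at 55.5, 55.9 and 57.8 CPM in the K68R libraries and at 27.4, 28.5 and 26.9 CPM in the WT libraries. All K68R values lay above all WT values, the opposite of Atf4. Ppp1r15a was 2.05-fold higher in K68R (log2 fold change 1.03, adjusted p = 5.00e-34, edgeR), and its log2 fold change was 0.80 after the offsets.

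Downstream, the ATF4 targets of amino acid synthesis and folate metabolism were mostly lower in K68R. Of 15 tested, 1 rose, 12 fell and 2 were not called, beside 40.8% higher and 40.5% lower over all genes. The median log2 fold change was -0.80. After the offsets 0 rose and 14 fell, against 37.7% and 38.1% of all genes, and the median was -0.90. Psat1, an enzyme of serine synthesis, was at 171, 175 and 174 CPM in the K68R libraries and at 419, 415 and 414 CPM in the WT libraries, 2.4-fold lower (adjusted p = 7.41e-57, edgeR). Asns, asparagine synthetase, averaged 60.9 ± 0.91 CPM over K68R and 127 ± 1.98 CPM over WT libraries, 2.09-fold lower. Mthfd2, a mitochondrial enzyme of folate metabolism, averaged 43.6 ± 1.13 CPM over K68R and 103 ± 4.91 CPM over WT libraries (SD, n = 3), 2.37-fold lower. All 3 stayed lower after the offsets, at log2 fold changes of -1.34 for Psat1, -0.89 for Asns and -0.90 for Mthfd2.

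Of 12 amino acid transporters 5 rose, 6 fell and 1 was not called, near the background of 40.8% and 40.5%, around a median of -0.09. After the offsets 3 rose and 9 fell, against 37.7% and 38.1% of all genes, around a median of -0.86. The 3 with the smallest p were all lower. Slc1a5, the glutamine transporter ASCT2, was 1.92-fold lower in K68R. Slc38a2, the transporter SNAT2 that is induced when amino acids are short, was 1.36-fold lower, and Slc7a6, which exchanges cationic and neutral amino acids, 1.43-fold lower. After the offsets their log2 fold changes were -1.29 for Slc1a5, -0.11 for Slc38a2 and -1.49 for Slc7a6. Among the 5 that rose, Slc7a11 was 1.53-fold higher, with log2 fold changes of 0.62 and, under the offsets, 0.72. Of 13 genes of cytosolic tRNA charging and tRNA export, 1 rose, 11 fell and 1 was not called, beside the same background. The median was -0.23, or -0.37 after the offsets over the 12 that had a GC value. Nars1 was 1.63-fold, Lars1 1.62-fold and Tars1 1.35-fold lower. These 3 genes encode the synthetases for asparagine, leucine and threonine, and after the offsets the log2 fold change was -0.49 for Lars1 and -0.06 for Tars1, with no value for Nars1.

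Other stress targets of ATF4 and CHOP were split. Of 20 genes listed 2, Fgf21 and Soat2, were too low to test. Of 18 tested, 10 rose, 6 fell and 2 were not called around a median of 0.13, beside 40.8% and 40.5% of all genes. After the offsets the balance turned, to 7 higher and 10 lower around a median of -0.19, against 37.7% and 38.1% of all genes. Pmaip1, which encodes the pro-apoptotic protein NOXA, averaged 195 ± 2.63 CPM over K68R and 29.4 ± 0.076 CPM over WT libraries (SD, n = 3 each). Tnfrsf10b, a death receptor, averaged 126 ± 2.11 CPM over K68R and 46.5 ± 0.271 CPM over WT libraries. The log2 fold change was 2.73 for Pmaip1 and 1.44 for Tnfrsf10b, and after the offsets 3.22 for Pmaip1 and 1.63 for Tnfrsf10b. Cebpb, a C/EBP factor, was 2.04-fold higher in the counts as deposited, but its log2 fold change of 1.03 became -0.39 after the offsets for a transcript with 67.2% GC. Pmaip1 and Tnfrsf10b, like Sesn2 and Gdf15, are also known as p53 targets. Whether p53 had a part in their levels was not tested. A list of 24 p53 targets shares Pmaip1, Tnfrsf10b, Bbc3 and Ddit4 with the stress targets above. On it 18 rose, 4 fell and 2 were not called around a median of 0.30, beside 40.8% and 40.5% of all genes. After the offsets 16 were higher and 7 lower around a median of 0.44, against 37.7% and 38.1% of all genes. Perp, a p53 effector in desmosomes, averaged 91.8 ± 2.84 CPM over K68R and 14.4 ± 0.563 CPM over WT libraries. Pmaip1, Perp and Tnfrsf10b had the smallest p on that list, and other targets moved less or the other way. Cdkn1a was 1.48-fold and Mdm2 1.30-fold higher, and Bax was 1.47-fold lower. With offsets their log2 fold changes were 0.74 for Cdkn1a, 0.26 for Mdm2 and -0.25 for Bax.

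**Figure D4:**
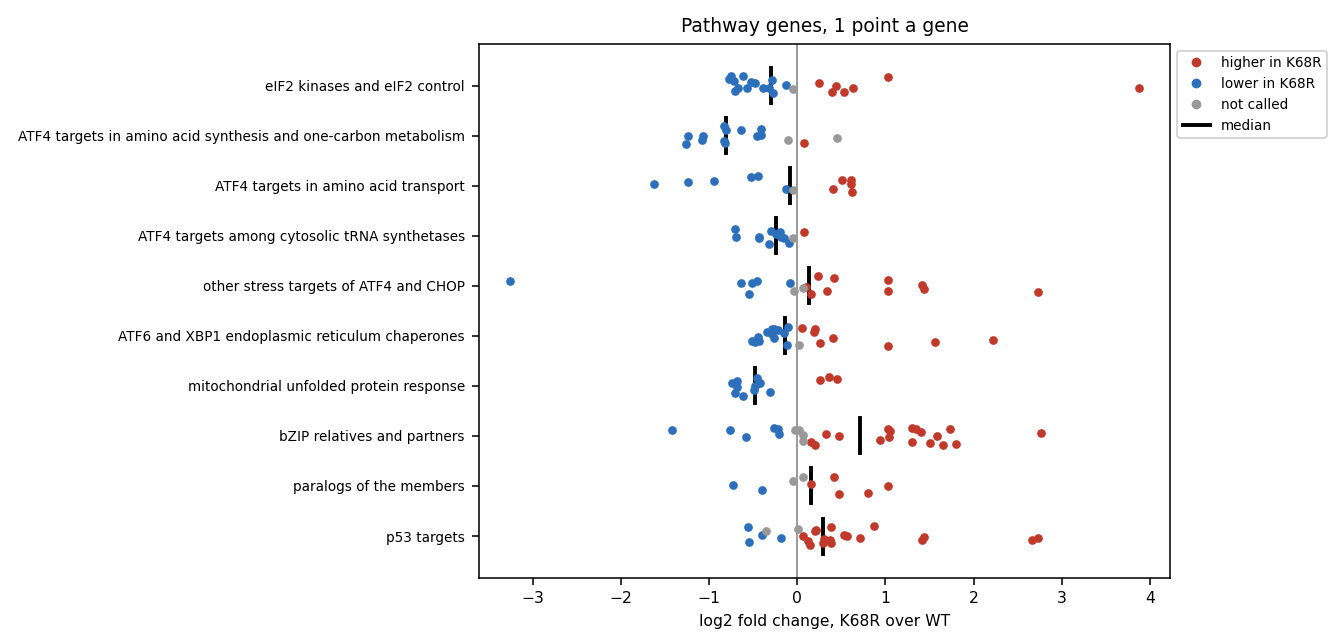
Each point is 1 gene of a pathway list, placed by its log2 fold change of K68R over WT and coloured by its call at an adjusted p under 0.05, with a bar for the median of the list. Genes of amino acid synthesis and folate metabolism lie mostly to the left (median -0.80), and bZIP relatives mostly to the right (median 0.71, but 0.11 after length and GC offsets, which are not drawn).

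Endoplasmic reticulum genes listed with ATF6 and XBP1 were also split. Around a median of -0.13, 8 of 22 were higher, 13 lower and 1 not called. Beside chaperones the list holds other genes, with Atf6, Xbp1 and Ern1 themselves among them. On this list Ssr1 shares 73.6% and Hspa5 33.6% of exonic bases with other annotated genes. Over all genes 40.8% were higher and 40.5% lower. The median of the listed genes turned to 0.18 after the offsets, when 15 were higher and 2 lower, against 37.7% and 38.1% of all genes. Hyou1, a large chaperone of the endoplasmic reticulum, was 2.96-fold higher, and Syvn1, a ubiquitin ligase of this organelle, 4.67-fold higher, with log2 fold changes after the offsets of 0.84 for Hyou1 and 1.03 for Syvn1. Pdia6, a disulfide isomerase, was 1.35-fold lower, but its log2 fold change after the offsets was -0.03 (adjusted p = 0.182, edgeR).

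Genes of the mitochondrial unfolded protein response, the programme that ATF5 is linked to, were mostly lower. Of 13 tested, 3 rose and 10 fell, beside 40.8% and 40.5% of all genes. The median was -0.48, or -0.23 after the offsets. Hspa9, the matrix chaperone mortalin, averaged 779 ± 9.3 CPM over K68R and 1251 ± 2.76 CPM over WT libraries. Hspd1, the matrix chaperonin HSP60, averaged 706 ± 19.98 CPM over K68R and 1077 ± 18.3 CPM over WT libraries (SD, n = 3 each). Timm17a, a subunit of the inner membrane translocase, was 1.6-fold lower. After the offsets all 3 stayed lower, at log2 fold changes of -0.23 for Hspa9, -0.28 for Hspd1 and -0.11 for Timm17a.

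In the wider bZIP family, where Batf2 was too low to test, 18 of 28 genes rose, 6 fell and 4 were not called, around a median of 0.71. Over all genes 40.8% rose and 40.5% fell. After the offsets 15 of the bZIP genes rose and 13 fell around a median of 0.11, against 37.7% and 38.1% of all genes. Nfe2l1, a factor of proteasome supply, was 3.48-fold higher, with a log2 fold change of 0.72 after the offsets. The AP-1 subunit Jun was 2.99-fold higher and the AP-1 subunit Fosl2 2.47-fold higher, with log2 fold changes after the offsets of 0.99 for Jun and 0.10 for Fosl2. Of 9 tested relatives of the 10 genes within their own families (Nupr2 was too low to test) 5 rose, 2 fell and 2 were not called, around a median of 0.16. After the offsets the balance was the reverse, with 2 higher and 7 lower around a median of -0.23. The 2 that stayed higher were Sesn3 and Cebpd. Cebpa, Cebpb, Cebpd and Jdp2 are counted both here and among the bZIP genes. Sesn3, a sestrin like Sesn2, averaged 14 ± 0.822 CPM over K68R and 8.01 ± 0.357 CPM over WT libraries, and its log2 fold change of 0.81 was 1.28 after the offsets. Cebpd, a C/EBP factor of acute responses, was 1.39-fold higher, with a log2 fold change of 0.48 and of 0.79 after the offsets, and shares 14.2% of its exonic bases with Spidr on the opposite strand.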

How the data were processed

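Poly(A) RNA was sequenced from 3 K68R and 3 WT fibroblast libraries. Per the labels' protocols, the RNA integrity number was above 4 and the library kit was stranded. Per the submitters' processing notes, reads were aligned and counted with tools that include HISAT2 2.2.1 and featureCounts 2.0.6, on build mm39. The authors deposited counts per gene that are not normalized. Per the file headers, read pairs over RefSeq exons were counted with no option for strand or for multi-mapped reads, so overlapping genes on opposite strands cannot be separated. The deposited file also gives each gene's exonic length.

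Groups came from the titles. Chi-square per gene was 1.88 to 2.32 between libraries of one genotype, more than sampling alone gives. Each library counted as 1 sample, and these values do not show whether libraries of one genotype came from separate cultures. The comparison used edgeR 4.0.16 in R 4.3.3 (filterByExpr, TMM, robust quasi-likelihood F test). P-values were adjusted by Benjamini-Hochberg over all 16730 genes tested, with a threshold of 0.05. All 10 genes passed the filter. The common biological coefficient of variation was 2.19%. Log2 CPM, for likeness to Atf4, used a prior count of 2. TPM divided counts by exonic length over all genes. For the offsets, mgcv 1.9-3 fitted a smooth surface over log2 length and GC in every library. GC was taken from GENCODE M21 (GRCm38) by gene symbol, 36310 directly and 631 through another symbol, and 15676 of the tested genes had a value. Limma-voom (limma 3.58.1) and DESeq2 1.42.0 were alternatives, beside other scalings, filters, thresholds, a 1.5-fold bound, a replicate block, the offsets and fits without each library in turn. The procedure was tested on simulated data.

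The 10 genes, the pathway lists and the tests were chosen with earlier results of these data known. Some genes stand on several lists, such as Ppp1r15a, Dnajc3, Atf6, Trib1, Cebpb and Jdp2, so the counts of the lists are not independent. Named beyond the 10 and Sod2 were up to 3 called genes of each list with the smallest p. Ppp1r15a, the 4 eIF2 kinases and the 3 genes nearest to Atf4 were named as well. Slc7a11, Cdkn1a, Mdm2 and Bax were named outside this rule, to show list genes that moved less or the other way. Floors of 3 counts cover counting error only.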

Additional observations from a re-analysis of the deposited data

How the results depend on the processing

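Tested against a bound of 1.5-fold, 1 of the 10 genes was higher and 3 were lower in K68R, of 4365 higher (26.1%) and 2490 lower (14.9%) genes in all, and the Sod2 log2 fold change of -0.57 was not called (adjusted p = 0.692, edgeR). Among genes under 4000 exonic bases and under 50% GC, tested and scaled among themselves, 1290 were higher and 1276 lower, since fewer genes were tested. None of the 10 genes qualified there, and Sod2 had -0.13 (log2). Upper quartile normalization, which moved the median of all genes to -0.12 (log2), gave -0.039 for Ddit3 and -0.019 for Gdf15. Length and GC offsets gave 0.23 for Nupr1 and -0.28 for Gdf15. The cause of these changes was not tested. Atf4, Cebpg, Chac1 and Sesn2 kept their direction and their call under all 16 alternatives that could be fitted, with log2 fold changes from -1.19 to -0.90 for Atf4, from -0.92 to -0.52 for Cebpg, from -0.89 to -0.73 for Chac1 and from 1.1 to 1.98 for Sesn2. Atf3, Atf5 and Trib3 lost their call under the 1.5-fold bound alone. Leaving out each library in turn gave 2 to 3 higher and 6 lower genes of the 10, 6760 to 6849 higher and 6643 to 6802 lower genes in all, and the same TPM ranks. A replicate block gave 3 higher and 6 lower of the 10, of 6804 and 6763 in all. The numbers did not pair the libraries: deviations of libraries with the same number correlated at -0.00947 for number 1, 0.0135 for number 2 and 0.013 for number 3 over 16730 genes. Trib3, Chac1 and Atf3 rest on 151 to 480 counts a library, which limits their precision.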
